A study of Mus musculus with 36 samples.

Results

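The genes Nnt, Wdfy1, Entpd4 and Ide have been listed among those whose RNA or gene copies differ between substrains or colonies of C57BL/6 mice. They were taken by symbol from the gene table, 4 of its 19025 genes, together with their 10 of 75004 rows in the transcript table. They were chosen by their fold changes between KI and WT in these data, so every KI against WT value of these 4 genes is a description and carries no test. Only Nnt of the 4 stood apart between the genotypes in most regions. Wdfy1 was lower in KI on average with overlapping libraries, and Ide had nearly the same level in both genotypes. Entpd4 could not be measured apart from its copy. The 4 are therefore called by their names, and no substrain is given to any library.

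RNA was sequenced from brain tissue of C57 mice aged 6 to 7 weeks. The tested mice carried a knock-in (KI) of a synonymous base change in Maoa, which encodes monoamine oxidase A on the X chromosome, and the others were wild type (WT) at Maoa. Each genotype gave 18 libraries, 3 from each of the regions labelled HP, PFc, Nac, STR, SN and VTA. The labels state neither the C57 substrain of either genotype, nor how the KI line was made, nor whether the mice were littermates, so the Maoa genotype and any difference in genetic background cannot be told apart. They also do not say that the 3 libraries of a group came from separate animals, and p-values then measure only the spread between libraries, which may be technical.

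Nicotinamide nucleotide transhydrogenase, the product of Nnt, sits in the inner mitochondrial membrane and uses the proton gradient to make NADPH, which mitochondria need to remove peroxides. C57BL/6J mice, the strain of the mouse reference genome, carry an in-frame deletion of several Nnt exons. Wdfy1 encodes an endosomal protein with a FYVE domain and WD repeats that acts as an adaptor in signalling by Toll-like receptors 3 and 4. Entpd4 encodes a nucleoside diphosphatase of the Golgi and lysosomes, and Ide encodes insulin-degrading enzyme, a metalloprotease that also cuts amyloid-beta. A duplicated segment that holds Ide and Fgfbp3 is known in some C57BL/6J colonies.

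On GRCm38.p6, in RefSeq's annotation, Nnt (gene 18115) lies at chr13:119335527-119409257 and Wdfy1 (gene 69368) at chr1:79702262-79776143. Entpd4 (gene 67464) lies at chr14:69337151-69366742 and Ide (gene 15925) at chr19:37268743-37334544. Entpd4 has a copy, Entpd4b (gene 100862375), at chr14:69555401-69584940. In GENCODE M21 the Entpd4 transcript NM_026174 and one of Entpd4b are both 3589 bases long and differ at 0 positions. The other Entpd4 transcript in the transcript table, NM_001360352, was not compared. Their first 60 coding bases are shown, with the start codon in capitals, because a read from either gene could have come from the other.
Entpd4: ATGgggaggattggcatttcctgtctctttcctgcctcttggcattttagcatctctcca
Entpd4b: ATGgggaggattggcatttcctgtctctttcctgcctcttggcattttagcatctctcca

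The Wdfy1 transcripts differ in where the protein ends. NM_001111279 has 12 exons and codes for 410 residues, and the short NM_027057 has 5 exons and codes for 187 residues. Their last 60 coding bases, at chr1:79705511-79705570 and chr1:79726487-79726546 on the minus strand, are shown with the stop codon in capitals because these ends tell the forms apart.
NM_001111279: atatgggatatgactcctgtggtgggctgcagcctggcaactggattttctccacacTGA
NM_027057: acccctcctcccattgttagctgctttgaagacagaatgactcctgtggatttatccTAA

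For Nnt the transcript table has a single row, NM_001308506, whose GENCODE model has 17 exons and codes for 835 residues. It comes from the reference strain, so reads from exons that strain lacks have no row of their own and were not analysed here.

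Total estimated counts were 15145631 to 17452959 per KI library and 17275279 to 18863503 per WT library. By markers of the labelled region, 8 libraries went against their labels, 6 of them KI (HP 2, Nac 1, Nac 2, SN 1, SN 2 and STR 3) and 2 WT (Nac 2 and VTA 3). Markers of other regions were not part of this rule, so libraries not listed may still carry them. Maoa itself averaged 59.8 ± 5.23 CPM in the KI sums and 54.6 ± 2.92 CPM in the WT sums (SD, n = 3 each), where CPM is the count scaled to a common library total and a sum adds the 6 regions of one title number. By library, Maoa had 37.7 to 97.4 CPM in KI (median 51.0) and 34.0 to 78.0 CPM in WT (median 47.2), so the groups overlapped (edgeR log2 fold change of the sums 0.13, adjusted p = 0.431). The markers of neurons (4 of 4 detected, summed level 2128 to 4542 CPM in KI, median 3156, and 2053 to 5197 CPM in WT, median 4196), astrocytes (4 of 4, 2049 to 4861 CPM in KI, median 2600, and 1784 to 3772 CPM in WT, median 2068) and microglia (4 of 4, 242 to 475 CPM in KI, median 329, and 155 to 489 CPM in WT, median 269) overlapped between genotypes. So did those of oligodendrocytes (4 of 4, 2079 to 39039 CPM in KI, median 13060, and 2877 to 15545 CPM in WT, median 11160), endothelium (3 of 3, 76.1 to 249.9 CPM in KI, median 172.6, and 73.1 to 187.7 CPM in WT, median 134.6), choroid plexus (3 of 3, 10.01 to 10874 CPM in KI, median 157.8, and 8.02 to 16614 CPM in WT, median 60.8) and blood (2 of 2, 88.9 to 460.1 CPM in KI, median 197.5, and 102.9 to 478.4 CPM in WT, median 190.4). The medians were lower in KI for neurons and higher in KI for the other lists, and no marker was at 0 in all libraries of a genotype. Single libraries were not checked for markers at 0. In such bulk tissue, fewer cells of a type and less RNA per cell cannot be told apart.

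Set side by side per length, in the authors' TPM, the genes kept the same order in both genotypes. Entpd4 and Entpd4b added had the highest median level, 92.3 TPM in KI and 100.3 TPM in WT. Ide followed with 17.4 TPM in KI and 20.8 TPM in WT, then Nnt with 11.955 TPM in KI and 17.9 TPM in WT. Wdfy1 was lowest, at 6.23 TPM in KI and 8.345 TPM in WT.

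Nnt was lower in KI than in WT brain in every region. Over all libraries its level was 18.1 to 25.4 CPM in KI (median 21.002) and 21.4 to 36.6 CPM in WT (median 30.1), from 298 to 409 counts per KI library and 385 to 686 per WT library. All but 2 WT libraries, SN 1 and HP 3, lay above the highest KI library, Nac 3. In the sums, Nnt had 20.9 ± 0.174 CPM in KI and 29.9 ± 0.312 CPM in WT (SD, n = 3 each). The log2 fold change, KI over WT, was -0.52 (SE 0.054), a fold of 0.699.

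Region by region, the 3 KI and 3 WT libraries of Nnt did not overlap, except in SN. In HP, Nnt had 22.3, 20.4 and 21.7 CPM in KI libraries and 31.0, 31.6 and 24.1 CPM in WT libraries. PFc libraries had 20.6, 22.4 and 21.6 CPM in KI and 30.3, 31.2 and 29.0 CPM in WT. In Nac the KI values were 19.4, 20.4 and 25.4 CPM and the WT values 30.5, 29.2 and 30.2 CPM. Nac 3 was thus the KI library nearest to WT, and it is not among those that went against their region label. STR showed the largest difference in means, with 21.97, 22.1 and 18.2 CPM in KI and 36.6, 31.4 and 36.1 CPM in WT. VTA had 20.2, 18.9 and 18.1 CPM in KI against 28.2, 27.3 and 29.97 CPM in WT. SN was the exception, with 21.4, 22.4 and 20.6 CPM in KI and 21.4, 27.0 and 29.4 CPM in WT. There the WT library SN 1 fell within the KI values.

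**Figure D1:**
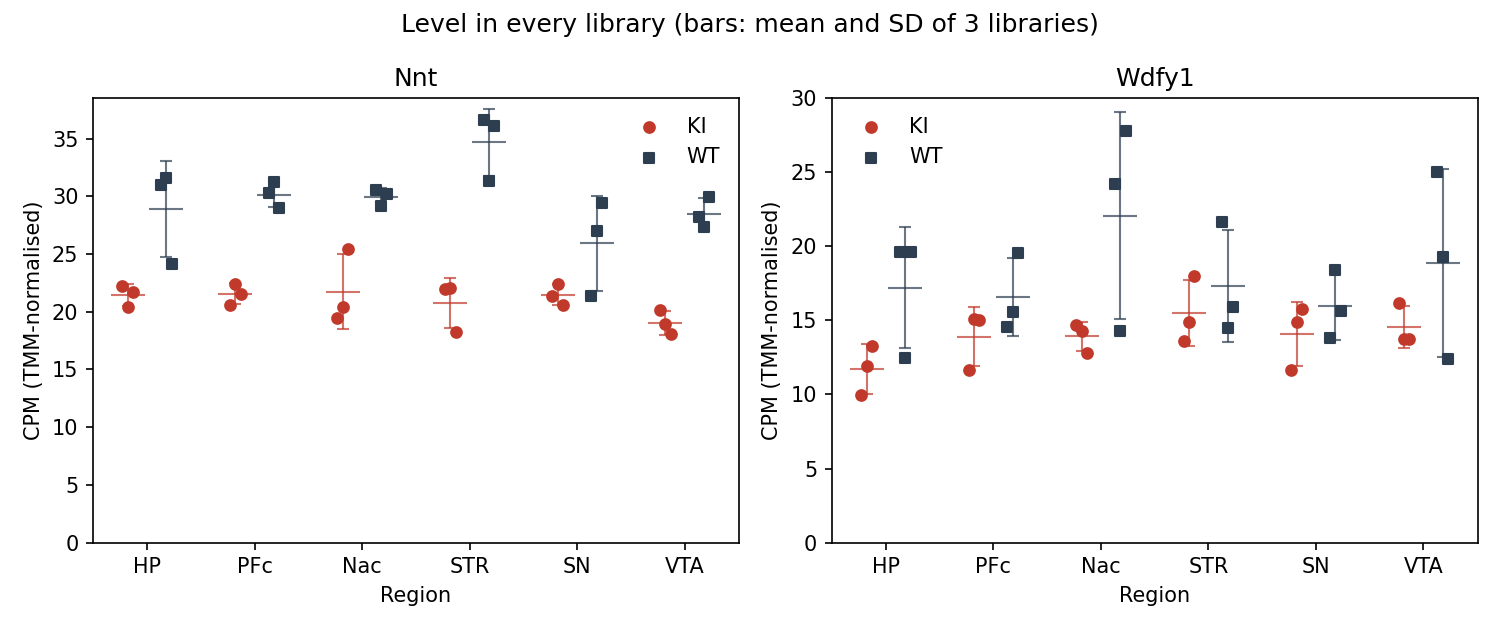
Levels of Nnt (left) and Wdfy1 (right) in CPM in each of the 36 libraries, by region, with KI as circles to the left of WT as squares and the mean and SD of 3 libraries as bars. Nnt values of KI lie below those of WT in 5 of 6 regions and overlap in SN, while Wdfy1 values overlap in all 6.

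The log2 fold change of Nnt ran from -0.28 (SE 0.172) in SN to -0.72 (SE 0.133) in STR. HP stood at -0.43 (SE 0.140), PFc at -0.47 (SE 0.112), Nac at -0.49 (SE 0.173) and VTA at -0.59 (SE 0.116). In the authors' deposited table the Nnt log2 fold changes, KI over WT, were -0.43 (HP), -0.48 (PFc), -0.47 (Nac), -0.74 (STR), -0.28 (SN) and -0.59 (VTA). KI values lay wholly below WT values in at least 5 of 6 regions for 9 of 15367 genes tested over the 36 libraries (0.0586%). Per region, all 3 KI libraries lay below all 3 WT libraries for 12% of genes in HP and 16.2% in PFc, 1.67% in Nac and 9.54% in STR, and 12.7% in SN and 12.1% in VTA. These shares are given as background, since the genotype contrast chose the gene.

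Over the 324 pairs of a KI and a WT library, Nnt was lower in the KI library in 315 pairs. No other gene of the 15367 was lower in KI in as many pairs. This rank is a description, since the genotype contrast chose Nnt, and pairs that share a library are not independent. In either direction 2 genes were more one-sided, Rbm3, a cold-induced RNA-binding protein gene, and the predicted gene LOC115490200, both chosen after their values were seen and both higher in KI. Rbm3 had 95.4 ± 23.4 CPM in KI and 52.6 ± 8.06 CPM in WT (SD, n = 18 each). For 0 genes did all 18 KI libraries lie below all 18 WT libraries (0% of those tested), and for 0 did they lie above (0%).

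The 8 libraries that went against their region labels had Nnt values like those of their own genotype. The 6 KI ones had 18.2 to 22.4 CPM and the 2 WT ones had 29.2 CPM in Nac 2 and 29.97 CPM in VTA 3. Without these 8, in a fit with region as a term, the log2 fold change of Nnt was -0.47. KI libraries had lower totals than most WT libraries, a lower median of summed neuron markers and higher medians of summed oligodendrocyte, astrocyte, microglia, endothelium and choroid plexus markers, as given above, and the part of depth and of cell types in the Nnt difference was not tested.

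Differences between regions within a genotype are independent of the KI against WT contrast and were tested. No region difference of Nnt passed edgeR's quasi-likelihood F test in KI (adjusted p = 0.677) or in WT (adjusted p = 0.126). Of all genes tested, 12.6% passed this test in KI, 1901 of 15084, and 48% in WT, 7248 of 15094. These counts hung on the libraries used. Without those against their region labels they were 7791 of 15434 in KI and 10671 of 15240 in WT, and leaving out 1 number brought them as low as 8 without KI replicate 3 and 2156 without WT replicate 1. Nnt means in KI ran from 19.0 ± 1.06 CPM in VTA through STR, HP, SN and PFc to 21.8 ± 3.21 CPM in Nac (SD, n = 3), 1.14-fold, and the libraries of neighbouring regions in this order overlapped at all 5 steps. WT means ran from 25.9 ± 4.12 CPM in SN through VTA, HP, Nac and PFc to 34.7 ± 2.87 CPM in STR (SD, n = 3), 1.34-fold. Neighbours in the WT order overlapped in 4 of 5 steps, and the libraries of SN and STR did not overlap. STR was thus the second lowest region of Nnt in KI and the highest in WT, in orders whose region tests did not pass.

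Wdfy1 was lower on average in KI in every region, with overlap between the genotypes in each. Its level over all libraries was 9.95 to 18.004 CPM in KI (median 14.02) and 12.4 to 27.8 CPM in WT (median 17.1), from 161 to 307 counts per KI library and 214 to 493 per WT library. The ranges differed mostly at the top, where 9 of 18 WT libraries exceeded every KI library, while 4 of 18 KI libraries were below every WT library. In the sums, Wdfy1 had 13.9 ± 0.995 CPM in KI and 18.1 ± 2.10 CPM in WT (SD, n = 3 each), with a log2 fold change of -0.38 (SE 0.103).

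In HP, Wdfy1 had 9.95, 11.9 and 13.3 CPM in KI libraries and 19.6, 12.5 and 19.6 CPM in WT libraries. Nac libraries had 14.7, 14.3 and 12.8 CPM in KI and 24.2, 14.3 and 27.8 CPM in WT. In both regions a single WT library, HP 2 or Nac 2, reached into the KI values, and WT Nac 2 is one that went against its label. VTA had 16.2, 13.7 and 13.8 CPM in KI and 25.0, 19.3 and 12.4 CPM in WT, where the lowest WT library was VTA 3, which also went against its label. The log2 fold change was -0.55 (SE 0.215) in HP, -0.69 (SE 0.272) in Nac and -0.38 (SE 0.255) in VTA. In PFc it was -0.23 (SE 0.173), in STR -0.14 (SE 0.195) and in SN -0.18 (SE 0.196). Without the 8 libraries that went against their labels and with region as a term, it was -0.42.

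Among regions, Wdfy1 means ran from 11.7 ± 1.67 CPM in HP to 15.5 ± 2.26 CPM in STR in KI and from 15.9 ± 2.29 CPM in SN to 22.1 ± 6.99 CPM in Nac in WT (SD, n = 3). Libraries of neighbouring regions in the order of levels overlapped at all 5 steps in both genotypes. Region differences did not pass edgeR's F test in KI (adjusted p = 0.499) or WT (adjusted p = 0.642). Over the settings run, the adjusted p of this test in WT ranged from 0.0523 to 0.876, at its lowest just above the threshold.

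By the estimated division of reads between transcripts, the lower Wdfy1 level in KI lay in the full-length transcript. NM_001111279 had 11.3 ± 2.06 CPM in KI and 16.3 ± 4.30 CPM in WT (SD, n = 18 each) and took a median of 83.8% of Wdfy1 counts in KI and 91.0% in WT. The predicted transcript XM_006496543 had 2.02 ± 1.71 CPM in KI and 1.25 ± 1.13 CPM in WT. Its share of Wdfy1 counts ran from 0% to 38.2% in KI libraries and from 0% to 14.1% in WT libraries, so the division between transcripts is uncertain. XM_017322387 had 0.634 ± 0.301 CPM in KI and 0.371 ± 0.275 CPM in WT, so neither predicted form was lower in KI. The short form NM_027057, whose end is shown above, was at 0 in 14 of 18 KI and 13 of 18 WT libraries and never exceeded 0.172 CPM in KI or 0.12 CPM in WT. XM_017322386 was at 0 in all 18 KI libraries and in 17 of 18 WT libraries.

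**Figure D2:**
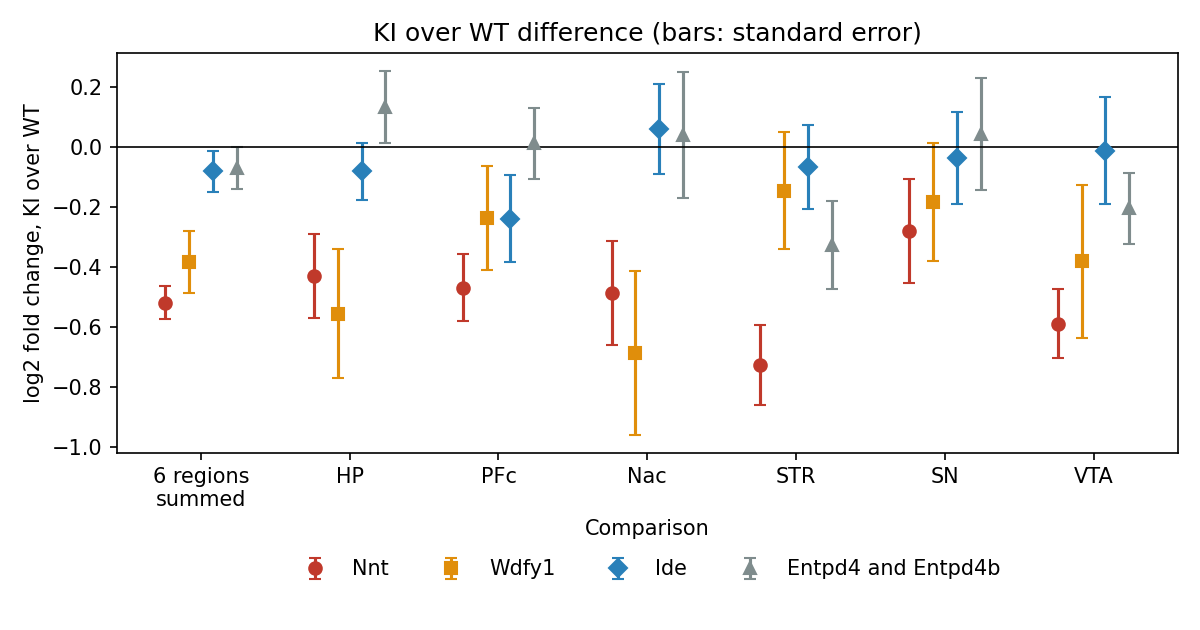
log2 fold change, KI over WT, of Nnt, Wdfy1, Ide and the added counts of Entpd4 and Entpd4b, in the sums of the 6 regions and in each region, with standard errors as bars. Nnt and Wdfy1 lie below 0 in all 6 regions, Nnt between -0.28 and -0.72, while Ide and the Entpd4 pair lie on both sides of 0.

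Ide had nearly the same level in both genotypes. Over all libraries it was at 36.7 to 53.1 CPM in KI (median 44.7) and 38.3 to 61.7 CPM in WT (median 47.6), from 603 to 858 counts per KI library and 700 to 1101 per WT library. In the sums it had 44.5 ± 0.800 CPM in KI and 47.0 ± 3.35 CPM in WT (SD, n = 3 each), with a log2 fold change of -0.08 (SE 0.069). PFc was the only region in which the libraries did not overlap, with 39.0, 49.5 and 48.1 CPM in KI and 61.7, 50.2 and 50.9 CPM in WT. The gap there was narrow, between KI PFc 2 and WT PFc 2, and the PFc log2 fold change was -0.24 (SE 0.145). In the other regions the log2 fold change of Ide ran from -0.08 (SE 0.096) in HP to 0.06 (SE 0.150) in Nac.

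Regional levels of Ide ran from 40.4 ± 3.88 CPM in STR to 49.8 ± 3.53 CPM in Nac in KI and from 42.7 ± 5.81 CPM in STR to 54.3 ± 6.45 CPM in PFc in WT (SD, n = 3). STR, SN and VTA were the 3 lowest regions in this order in both genotypes. The libraries of the lowest and highest region did not overlap in either genotype, but neighbours in the order overlapped at all 5 steps in KI and at 4 of 5 steps in WT. The region F test did not pass in KI (adjusted p = 0.566) or WT (adjusted p = 0.297). Without the 6 WT libraries numbered 3, however, the WT region test of Ide passed (adjusted p = 0.0391).

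The transcript table lists the same Ide accession, NM_031156, on a pair of rows whose counts add up to a whole number in all 36 libraries (within 0.01). The share on the second row ran from 5.54% to 81.2% in KI (median 19.97%) and from 5.58% to 87.3% in WT (median 30.4%). Reads were thus divided between the rows unevenly from library to library, and only their sum, the gene count used above, is described for Ide.

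Entpd4 could not be measured apart from its copy. Its own row held 0 counts in 4 KI and 3 WT libraries. Every other value stood within 2 counts of a multiple of 54 counts, with 11 libraries near 54 counts, 11 near 108, 5 near 162 and 2 near 216. Entpd4 and Entpd4b added gave a whole number in all 36 libraries (within 0.01), and Entpd4 took at most 9.82% of that sum in KI and 8.99% in WT, with medians of 3.54% in KI and 3.34% in WT. The level of Entpd4 alone, 0 to 13.3 CPM in KI and 0 to 11.4 CPM in WT, is therefore given as uncertain. Its 2 transcripts had 3.38 ± 2.65 CPM in KI and 3.06 ± 2.13 CPM in WT for NM_001360352, and 1.63 ± 1.23 CPM in KI and 1.73 ± 1.26 CPM in WT for NM_026174 (SD, n = 18 each).

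**Figure D3:**
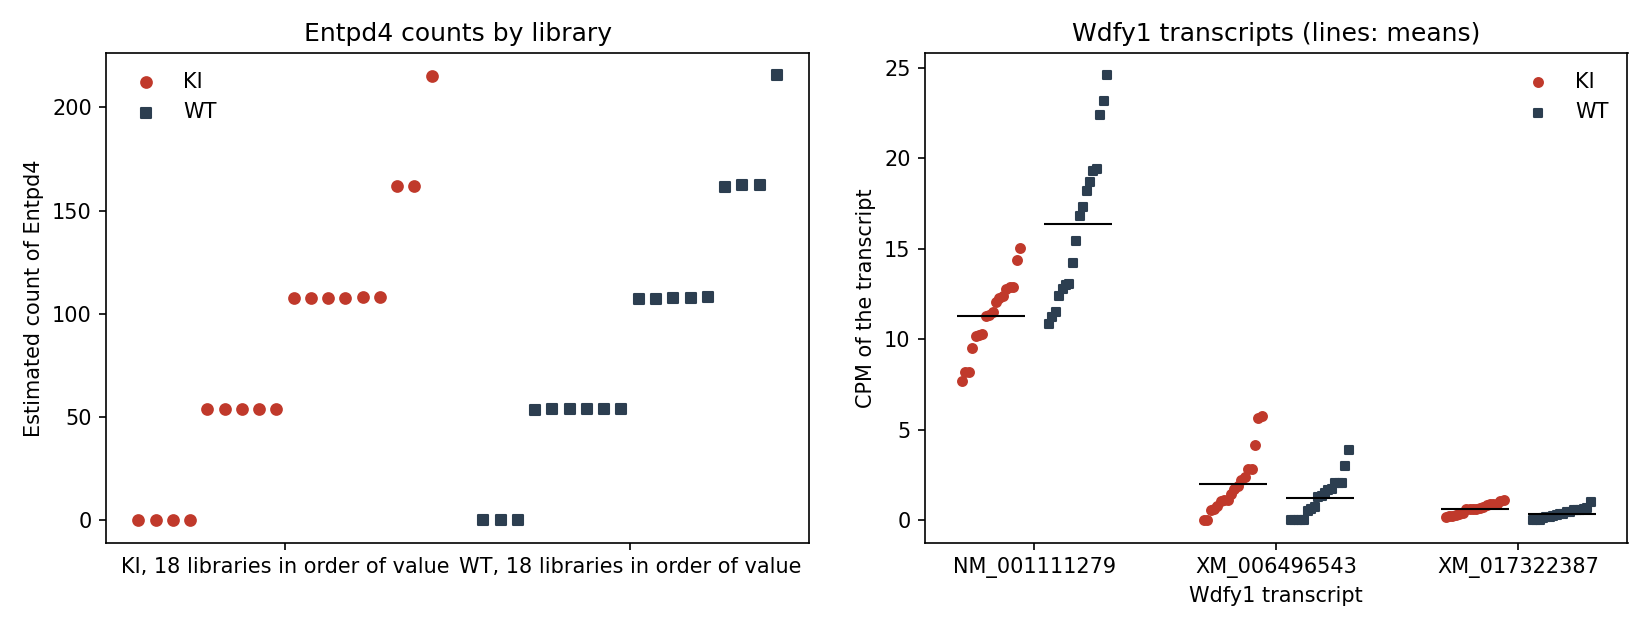
Left, the estimated count of Entpd4 in each of 18 KI and 18 WT libraries, ordered by value within the genotype; right, the CPM of 3 Wdfy1 transcripts in the same libraries, with KI as circles left of WT as squares and the mean as a line. Entpd4 counts stand at 0 or in steps near 54 counts in both genotypes, and NM_001111279 is the Wdfy1 transcript with the lower KI mean, 11.3 against 16.3 CPM.

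The added counts of Entpd4 and Entpd4b did not separate the genotypes. They came to 109 to 179.5 CPM in KI (median 133.7) and 116 to 178.9 CPM in WT (median 139.7), with overlap in all 6 regions. In the sums the pair had 135.7 ± 4.35 CPM in KI and 142.3 ± 8.89 CPM in WT (SD, n = 3 each), with a log2 fold change of -0.07 (SE 0.069). The log2 fold change was below 0 in 2 of 6 regions, -0.33 (SE 0.146) in STR and -0.20 (SE 0.118) in VTA, and reached 0.13 (SE 0.120) in HP. The region F test of the pair did not pass in KI (adjusted p = 0.635) or WT (adjusted p = 0.556).

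**Figure D4:**
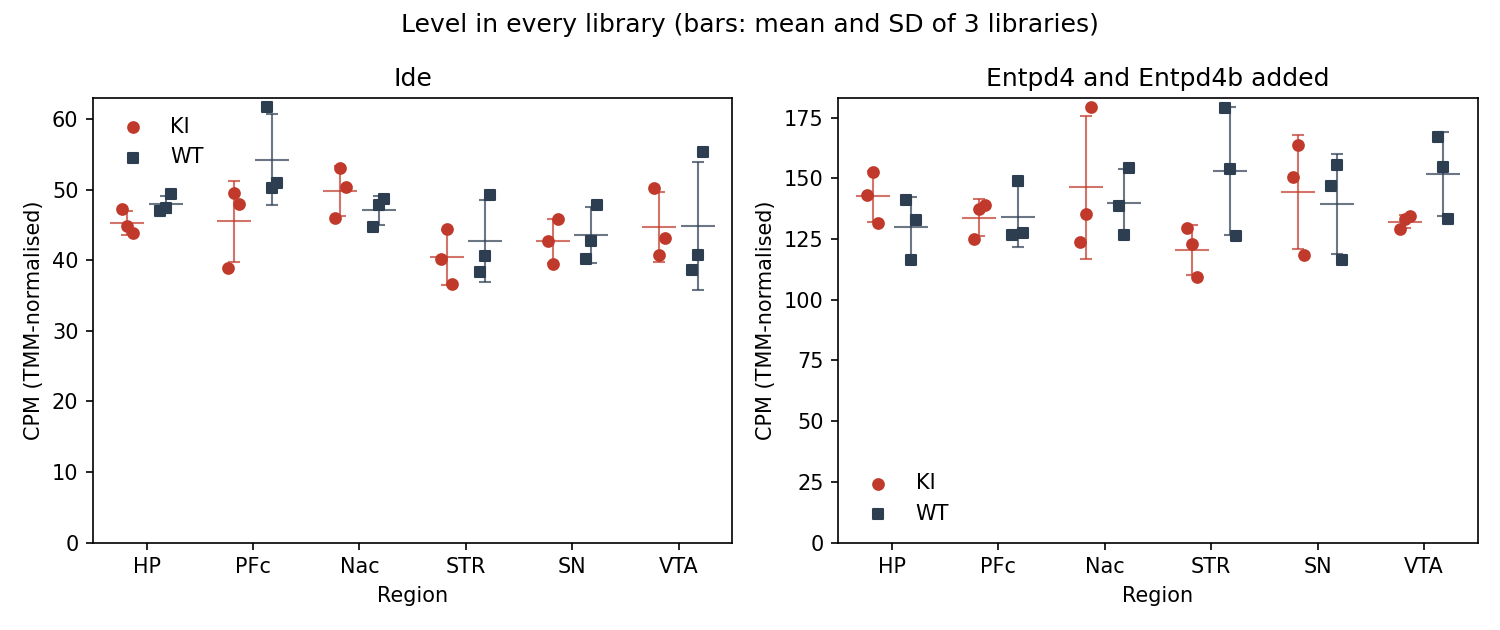
Levels in CPM of Ide (left) and of Entpd4 and Entpd4b added (right) in each library, by region, with KI as circles left of WT as squares and the mean and SD of 3 libraries as bars. The genotypes overlap in every region except PFc for Ide, where KI reaches 49.5 CPM and WT starts at 50.2 CPM.

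The genes that flank the 4 on their chromosomes are no members and were tested. Of the 40 nearest tested genes, 5 on each side of each, edgeR called 0 in the sums (adjusted p under 0.05; 0% of 16171 genes passed, with 3212 at an unadjusted p under 0.05). DESeq2 called 4 of the 38 to which it gave an adjusted p, against 8.87% of all genes it tested. KI and WT sums did not overlap for 14 of the 40, against 26.4% of all genes.

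Beside Nnt, the nearest tested genes were Fgf10, a growth factor gene, at a log2 fold change of -0.31 (adjusted p = 0.275), and Paip1, which binds the poly(A)-binding protein, at -0.05 (adjusted p = 0.684). Paip1 lies 19.1 kb from Nnt and had 90.2 ± 3.93 CPM in the KI sums and 93.6 ± 1.54 CPM in the WT sums (SD, n = 3 each). On the other side Tmem267, the chemokine gene Ccl28 and Hmgcs1, an early enzyme of cholesterol synthesis, were higher in all 3 KI sums. DESeq2 called Ccl28, at 2.55 ± 0.109 CPM in KI and 1.90 ± 0.0333 CPM in WT (adjusted p = 0.042).

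Around Wdfy1, the nearest genes Ap1s3, a subunit of a clathrin adaptor, and Mrpl44, of the mitochondrial ribosome, had log2 fold changes of -0.32 (adjusted p = 0.21) and 0.02 (adjusted p = 0.933). Mrpl44 overlaps Wdfy1, so reads of both could be confused where strand was not used, and the use of strand is not given in the sources used here. Mrpl44 had 28.2 ± 1.502 CPM in the KI sums and 27.8 ± 2.74 CPM in the WT sums. Serpine2, a secreted protease inhibitor, had 441 ± 46.6 CPM in KI and 349.6 ± 36.6 CPM in WT and was called by DESeq2 (adjusted p = 0.0459) but not edgeR (adjusted p = 0.158). Utp14b, which DESeq2 also called (adjusted p = 0.0407), and Fam124b were higher in all KI sums, and Ap1s3 and Cul3, a ubiquitin ligase scaffold, were lower in all of them. Fam124b was near the floor, at 0.136 ± 0.0337 CPM in the KI sums and 0.0556 ± 0.0004 CPM in the WT sums. DESeq2 gave Fam124b no adjusted p.

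Next to Entpd4, Slc25a37, which imports iron into mitochondria, and the predicted gene Gm16867, which overlaps Entpd4, had log2 fold changes of -0.12 (adjusted p = 0.647) and 0.24 (adjusted p = 0.386). Nefm, a neurofilament subunit 1212 kb away, had 204 ± 42.2 CPM in the KI sums and 372.4 ± 86.1 CPM in the WT sums. It was the neighbour with the lowest DESeq2 adjusted p, 0.000393, against 0.0875 in edgeR. The hormone gene Stc1 was also lower in all KI sums, at a log2 fold change of -0.16.

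Near Ide, Fgfbp3, which lies 349.1 kb from Ide in the known duplicated segment, had 6.45 ± 0.317 CPM in the KI sums and 5.39 ± 0.334 CPM in the WT sums, without overlap. Its log2 fold change of 0.26 (SE 0.092) did not pass in edgeR (adjusted p = 0.18) or DESeq2 (adjusted p = 0.124). Ide was at -0.08 (SE 0.069), with overlapping sums, and the copy number of Ide and Fgfbp3 was not tested. Between and beside them, March5, a mitochondrial ubiquitin ligase gene nearest to Ide on one side, had -0.09 (adjusted p = 0.399), Kif11, a mitotic kinesin gene on the other side, 0.31 (adjusted p = 0.56), and the homeobox gene Hhex 0.44 (adjusted p = 0.125). March5 was lower and Hhex higher in all KI sums.

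**Figure D5:**
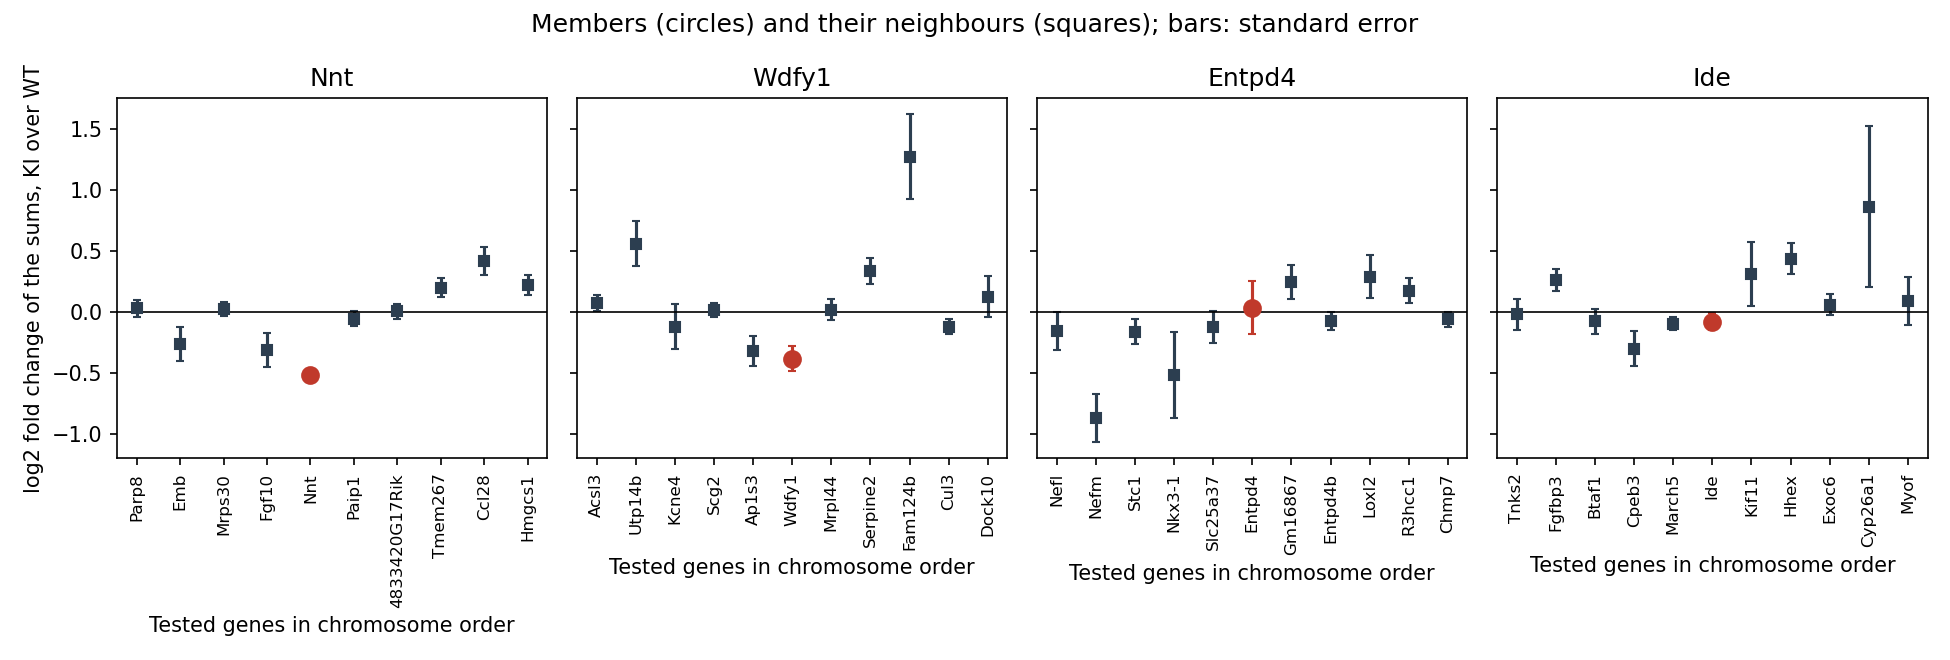
log2 fold change of the sums, KI over WT, of Nnt, Wdfy1, Entpd4 and Ide (circles) and of genes among the 5 nearest tested on each side (squares), in chromosome order, with standard errors as bars. Nnt, at -0.52, is the lowest in its row of genes, while the genes drawn beside it lie between -0.31 and 0.42.

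Other genes known to differ between C57BL/6 substrains or colonies lay on both sides of 0. Gabra2, of a GABA-A receptor alpha subunit, had 56.0 ± 2.69 CPM in the KI sums and 107.5 ± 12.8 CPM in the WT sums (log2 fold change -0.94, adjusted p = 0.0543 in edgeR and 5.85e-14 in DESeq2). Gabra2 differed between regions in WT (adjusted p = 0.00772), and its KI and WT libraries overlapped in Nac and SN. Crb1, a cell polarity gene with a mutation in C57BL/6N, had 2.12 ± 0.185 CPM in KI and 1.06 ± 0.355 CPM in WT (log2 fold change 1.002, adjusted p = 0.1 in edgeR and 0.00573 in DESeq2). Cyfip2, with a coding difference between substrains, had 720.5 ± 103.6 CPM in KI and 810.7 ± 41.6 CPM in WT (adjusted p = 0.446 in edgeR). Mmrn1 and Nlrp12 fell below the filter on low counts.

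Genes of the pathways in which the 4 act were also counted. Of 24 genes of NADPH supply and mitochondrial redox defence, edgeR called 0 and DESeq2 called 3, all higher in KI. These were Idh2, a mitochondrial isocitrate dehydrogenase that makes NADPH, at 57.8 ± 3.57 CPM in the KI sums and 48.5 ± 1.11 CPM in the WT sums, Glud1, glutamate dehydrogenase, at 461 ± 28.3 CPM in KI and 386 ± 15.97 CPM in WT, and Nadk2, the mitochondrial NAD kinase, at 82.4 ± 6.50 CPM in KI and 65.2 ± 5.42 CPM in WT. Their adjusted p in DESeq2 was 0.018, 0.0191 and 0.0149 in that order, and in edgeR 0.106, 0.119 and 0.105. DESeq2 called 4.17% of all genes higher in KI. The list's median log2 fold change was 0.03, against -0.0038 over all genes tested.

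Among 18 genes of FYVE proteins and endosomal Toll-like receptor signalling, edgeR called 0 and DESeq2 called 1 higher and 3 lower in KI, with 4.7% of all genes called lower. Zfyve9, which presents SMAD proteins to the TGF-beta receptor, had 80.6 ± 4.46 CPM in the KI sums and 107.8 ± 6.50 CPM in the WT sums (adjusted p = 0.0597 in edgeR and 0.000103 in DESeq2). Hgs, of endosomal sorting, and Tbk1, a kinase below Toll-like receptor 3, were the other two lower genes, and Traf3, an adaptor of the same pathway, was the higher one. The relatives of Wdfy1 did not pass in either tool. Wdfy2 had a log2 fold change of 0.01, Wdfy3 of -0.24 and Wdfy4 of 0.53 (adjusted p = 0.958, 0.314 and 0.16 in edgeR). The list's median was -0.02.

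Of 14 tested nucleotide hydrolase genes, edgeR called 0 and DESeq2 called only Entpd3, an ectonucleotidase of neurons. Entpd3 had 14.3 ± 0.726 CPM in the KI sums and 20.1 ± 1.35 CPM in the WT sums, a log2 fold change of -0.49 (SE 0.078; adjusted p = 0.0543 in edgeR and 3.62e-05 in DESeq2). Its relatives stood on both sides of 0, with Entpd1 at 0.27, Entpd2 at 0.18, Entpd5 at -0.15, Entpd6 at -0.16 and Entpd7 at -0.32, none of them called by either tool. The list's median was -0.14, against -0.0038 over all genes tested, and 11 of its 14 genes were below 0. Of all genes, DESeq2 called 4.7% lower in KI, and a shift of the list as a whole was not tested.

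Of 17 tested genes of peptide degradation, insulin signalling and amyloid processing, edgeR called 0. DESeq2 called Bace1, the beta-secretase, and Irs2, an insulin receptor substrate, lower in KI. Bace1 had 58.7 ± 4.92 CPM in the KI sums and 76.8 ± 8.95 CPM in the WT sums (adjusted p = 0.107 in edgeR and 0.0166 in DESeq2), and Irs2 had 68.4 ± 7.32 CPM in KI and 88.6 ± 11.5 CPM in WT (adjusted p = 0.144 in edgeR and 0.0455 in DESeq2). The median was -0.09, against -0.0038 over all genes tested, with 13 of 17 genes below 0. DESeq2 called 4.7% of all genes lower in KI. Whether the list as a whole was shifted was not tested.

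Likeness to each gene was measured as the root mean square difference of log2 CPM, centred on the gene's mean, over the 36 libraries. The measure takes in the difference between KI and WT, so near genes tend to share a member's fold change by construction. The genes nearest to Nnt were Pik3c3, at 0.178, Hyou1, at 0.195, and Phtf1, at 0.207, against a median of 0.463 over 15366 genes. Pik3c3, a phosphatidylinositol 3-kinase of autophagy, had 64.4 ± 7.31 CPM in KI and 81.9 ± 4.35 CPM in WT (SD, n = 18 each). Hyou1, an endoplasmic reticulum chaperone, had 121 ± 18.8 CPM in KI and 153.9 ± 12.01 CPM in WT. Wdfy1 was nearest to Pip4p2, Snupn and Tti2, at 0.274 to 0.283 (median over all genes 0.472). Ide was nearest to Tm9sf3, Mtmr6 and Rab23, at 0.0975 to 0.108 (median 0.393), with log2 fold changes of -0.11, -0.07 and -0.11. For Entpd4 the nearest genes, Zfp385b, Cacna1c and Gria3, were at 1.27 to 1.29, against a median of 1.57, which is hardly closer than other genes.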

How the data were processed

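The data are RNA-seq of brain tissue, 36 libraries from 6 regions, made with a SMARTER mRNA-seq kit per the labels' protocols. Reads were placed on GRCm38.p6, per the submitters' processing notes; aligner and counting tool are not given in the sources used. The authors deposited estimated counts and TPM per gene and per transcript, and log2 fold changes per region, per the file headers; 144 further per-sample columns were not used. Of the gene values 9.88% were not whole, and the estimated counts were rounded before the tests. CPM uses TMM factors over all 36 libraries; for CPM of transcripts the gene-level totals were used.

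Genes were filtered by filterByExpr and tested with edgeR 4.0.16 (quasi-likelihood, TMM, Benjamini-Hochberg, threshold 0.05) over all genes: KI against WT in sums of the 6 regions per genotype and title number, KI against WT per region, regions within 18 WT and within 18 KI libraries, and genotype by region over 12 groups, which rests on the KI against WT differences that chose the 4 genes and is therefore not reported for them. All 4 genes passed each filter. DESeq2 1.42.0 was an alternative, as were DESeq2 size factors, no filter, the title number as a block, leaving out libraries, and, added after seeing the data, Entpd4 and Entpd4b counted together. Standard errors of log2 fold changes were taken from the quasi-likelihood F values. Each test was checked on simulated data.

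A library went against its region label where its mean log2(CPM + 1) over that region's markers was below the midpoint between the medians of libraries with and without that label. Libraries that passed could still be high for another region's markers. The striatal mean of KI PFc 1 was 7.27, above the striatal midpoint of 5.96. The cortical mean of WT SN 2 was 5.84, above the cortical midpoint of 5.47. Gene order and coordinates come from RefSeq's table of GRCm38.p6, to which 18969 of 19025 gene identifiers matched, and sequences from GENCODE M21 of the same build. Named genes were the 4 members, the nearest tested neighbour on each side and those among 5 on each side with separated sums or a call, Fgfbp3, list members with a call and relatives by name, and the 3 nearest by likeness; since edgeR called none, list members called by DESeq2 are named, a choice made after seeing the data. Values of 2 genes that this rule names are not reported here. The members, gene lists and tests were chosen with earlier results of these data known. Symbols Nrdc, Iapp and Entpd8 had no row. Software was R 4.3.3, limma 3.58.1, Python 3.11.15, pandas 2.3.3, numpy 2.4.6 and matplotlib 3.10.9.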

Additional observations from a re-analysis of the deposited data

How the results depend on the processing

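The log2 fold change of Nnt was below 0 in all 71 values computed over the sums, the 6 regions and the alternatives. DESeq2 and the fit of all 36 libraries with region as a term are not among these values. They reuse the same libraries and the contrast that chose the 4 genes, so their signs are a description. Leaving out 1 number moved the Nnt value between -0.52 and -0.50 in the sums. A fit of separate libraries with region as a term, without those against their region labels, gave -0.47. Wdfy1 was below 0 in 70 of 71 values; without WT STR 1 its STR value was 0.05. In that fit Entpd4 had -0.49, and leaving out 1 number gave -0.15 to 0.22. Among regions in WT, without WT replicate 1 the adjusted p was 0.032 for Entpd4 (range 0.032 to 0.797) and without WT replicate 3 it was 0.0391 for Ide (range 0.0391 to 0.972). All 29 alternatives run of the KI region tests of the 4 genes stayed above the threshold. Values of Entpd4 alone hung on single libraries, as in VTA, where its log2 fold change was 8.79 without WT 1.

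Calls over all genes changed with the tool, the model and the libraries used. In the sums edgeR's 0 became 1356 with DESeq2, 1455 with all 36 libraries fitted separately and region as a term, 2618 in the same fit without the libraries against their labels, 5 with no filter and 0 to 10 on leaving out 1 number (10 without KI replicate 2). By region DESeq2 called 257 (HP), 365 (PFc), 2 (Nac), 210 (STR), 988 (SN) and 194 (VTA) genes. Leaving out 1 number, edgeR called 0 to 60 in HP (60 without KI 2) and 0 to 550 in PFc (550 without KI 1). Such counts were 0 in Nac, 0 to 2 in STR (2 without WT 2), 0 to 383 in SN (383 without KI 3) and 0 to 832 in VTA (832 without WT 3). The cause was not tested. With the replicate number as a block, edgeR called 13 genes in SN and 0 in each other comparison of genotypes. No region test of the 4 genes within a genotype changed its call with this block. The labels do not say whether the numbers pair the samples. Of 18 same-numbered KI and WT pairs, 2 correlated above 0.1 (range -0.517 to 0.534). In all, 5 of 18 KI libraries correlated best with their own number. With 3 libraries per group, these correlations cannot decide whether samples were paired. With 10 neighbours on each side in place of 5, edgeR called 0, as it did over all genes. Over all genes it tested, DESeq2 called 8.87%. Of these 79 neighbours it called 8, in place of 4 of the nearer ones, and some had no adjusted p. The lowest of their DESeq2 adjusted p was that of Sgpp2, near Wdfy1 and named with its values known. It had 20.95 ± 1.15 CPM in KI and 40.5 ± 3.41 CPM in WT (SD, n = 3 each; adjusted p = 0.0543 in edgeR and 5.13e-18 in DESeq2). Of the 3 genes measured apart from a copy, Wdfy1 had the fewest counts, 161 to 493 per library.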
